A study of Mus musculus with 6 samples.

Results

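RNA brought down from mouse testis lysate with an antibody against MVH was set against total testis RNA, gene by gene. The comparison used 4 of the 6 arrays of the study, chosen by their labels: MVH precipitate 1 and 2, and total RNA 1 and 2. All groups came from testis of C57/BL6 mice, and the labels give neither an age nor a genotype beyond the strain. For the MVH precipitate, the lysate was cleared with Protein A beads, left overnight with an anti-MVH antibody, collected on Protein A beads and washed before RNA was extracted. Total RNA, labelled WCE, was taken with no antibody. The remaining 2 arrays carry RNA brought down with normal rabbit IgG, and are given below as the level that came with beads and an unrelated antibody. The labels do not say whether arrays 1 and 2 of a group came from separate animals, so the tests measure the spread between these arrays, which may be technical.

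MVH, the product of Ddx4, unwinds RNA as a helicase of the DEAD-box type and is a standard marker of the germ line. In the testis it lies in the cytoplasm of spermatocytes and round spermatids and is concentrated in the chromatoid body, a granule that holds RNA, piRNA pathway proteins and translational regulators. Spermatids store many mRNAs for later translation, because transcription stops when the chromatin is compacted. RNA immunoprecipitation recovers RNA bound to a protein directly, RNA in the same complex and RNA that sticks to the beads. The study asked which testis mRNAs were targets of MVH. A precipitate set against total RNA is a comparison of RNA composition: every sample was amplified and every array was scaled, so the yield of RNA from the beads is unknown, and a gene lower in the precipitate need not have been absent from it. In bulk RNA, fewer cells of a type and less RNA per cell cannot be told apart.

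Values below are of 2 kinds. A scaled intensity is a probe's deposited intensity on a linear scale, set to an array median of 30. A difference is the log2 value in the MVH precipitate minus that in total RNA, averaged over 2 arrays per group, with the standard error (SE) of the limma fit. Each probe has its own brightness, so a higher intensity at one gene's probe than at another's does not show a more abundant transcript. The 4 arrays listed 22410 to 22861 of 23473 probes, and 21793 probes were listed on all 4. Of these, 5053 had a mean scaled intensity under 10 and are called dim, and 16740 did not. The labelled tissue was borne out by its germ cell transcripts. Prm1, which encodes protamine 1 of the compacted sperm nucleus, read 53209 and 74652 in the MVH precipitate and 67960 and 77027 in total RNA. Tnp1, transition protein 1, had 61764 and 81167 against 74564 and 77410. These are among the brightest probes of the arrays, where saturation is possible. The groups overlapped for both genes, with differences of -0.20 ± 0.31 for Prm1 and -0.10 ± 0.32 for Tnp1.

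The MVH precipitate and total RNA were close to each other as a whole. The log2 values of the 2 MVH arrays correlated at 0.986 across probes, those of the 2 total RNA arrays at 0.988, and those of an MVH and a total RNA array at 0.978 to 0.985. These are correlations across genes, which are not independent replicates. Across all 21793 probes, differences had a median of -0.02. Their middle 50% lay between -0.26 and 0.22, and 90% lay between -0.70 and 0.73. A difference above 1, which is a 2-fold excess in the precipitate, was found at 520 probes, and one below -1 at 316.

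In the limma fit over all probes, 1 probe was higher in the MVH precipitate (0.00459% of the probes tested) and 2 were lower (0.00918%), at an adjusted p under 0.05. At an unadjusted p under 0.05 there were 987 higher and 960 lower. None of the 3 probes has a gene name in the annotation used here. Probe M400015034 fell by 4.51 ± 0.37, or 22.8-fold, with an adjusted p of 0.0205 in the limma fit. Its scaled intensities were 1210 and 1610 in the MVH precipitate, 32100 and 31559 in total RNA and 15627 and 32749 in the IgG precipitate, so that this bright probe was low on the MVH arrays and not on the others. Probe M400000660 fell by 2.86 ± 0.30, from 849 and 1241 in total RNA to 154 and 130 in the MVH precipitate, with 559 and 476 in the IgG precipitate (limma adjusted p = 0.0449). Probe M400000949 rose by 3.23 ± 0.30, from 11.3 and 13.3 to 102 and 130, with 49.3 and 69.1 in the IgG precipitate (limma adjusted p = 0.0247). All 3 calls were lost when MVH precipitate 2, total RNA 1 or total RNA 2 was left out, and that of M400000660 also without MVH precipitate 1 (limma adjusted p = 0.0566).

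Dim probes had a wider spread between arrays of a group than brighter ones, and the fit made without them called more. Among the 16740 probes that were not dim, 115 were higher in the MVH precipitate (0.687%) and 27 were lower (0.161%) at a limma adjusted p under 0.05. The higher ones included 85 with a gene name, and the lower ones 13. The dim limit is set on the mean of the 4 arrays compared. A probe under 10 in 1 group could therefore be kept through the other group alone, which favours probes with a difference. No called probe had overlapping groups. The 115 higher probes leaned on MVH precipitate 2. In 111 of them (96.5%) MVH precipitate 2 was above MVH precipitate 1, against 55.7% of all probes that were not dim, and their median difference from total RNA was 1.49 for MVH precipitate 1 and 2.26 for MVH precipitate 2. For the 27 lower probes these medians were -1.69 and -1.68. Without MVH precipitate 2, the fit called 1 probe higher and 1 lower. Without MVH precipitate 1 it called 173 higher and 11 lower, without total RNA 1 it called 0 and 0 (659 and 751 at an unadjusted p under 0.05), and without total RNA 2 it called 1 and 3. Fitted on the 4 arrays alone, without the IgG arrays, it called 469 and 233.

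**Figure D1:**
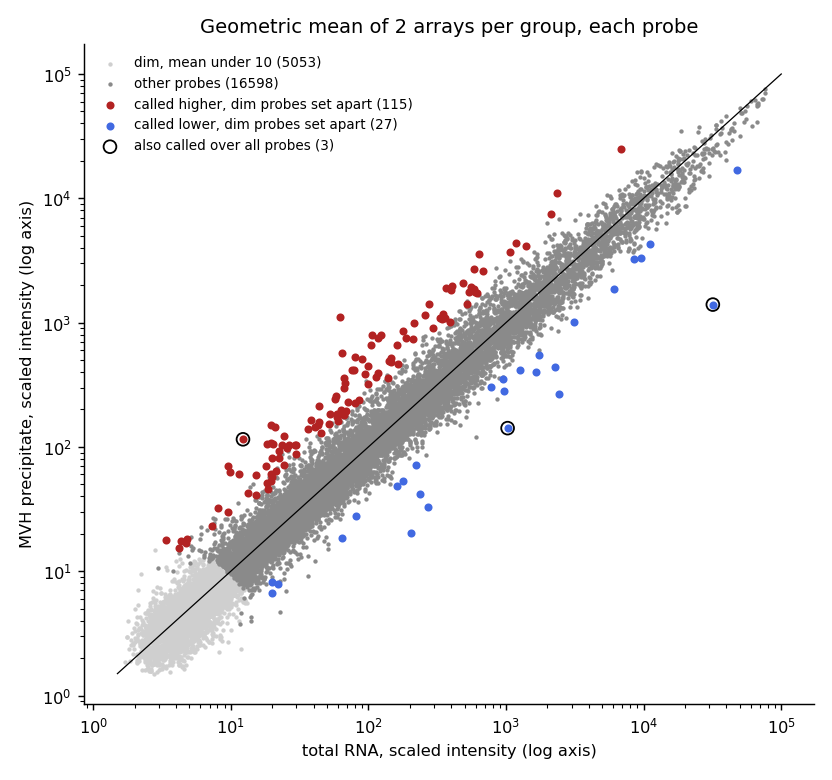
Each point is a probe, at the geometric mean scaled intensity of the 2 total RNA arrays (x axis, log scale) and of the 2 MVH arrays (y axis, log scale); the line marks equal values. The 115 probes called higher and 27 called lower without dim probes lie off the line from the dim end to the bright end, and the 3 ringed probes also passed over all 21793.

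Without any test, the 2 MVH arrays both lay above the 2 total RNA arrays at 4066 probes (18.7%) and below them at 4718 (21.6%). They were at least 2-fold apart between the nearest arrays at 141 probes above (0.647%) and at 70 below (0.321%). With 2 arrays a group, an exact permutation test of a single value cannot go below 1 in 3, so these counts serve as a background for the groups of genes below. Counted with 1 probe per gene, 20.3% of 15489 genes stood higher without overlap and 21.1% lower.

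The genes named first are the 15 in each direction with the widest gap between the nearest MVH and total RNA arrays, among named genes that were not dim. None of these 30 passed in the fit over all probes, with limma adjusted p-values of 0.104 to 0.172 for the higher ones and 0.104 to 0.522 for the lower ones. In the fit without dim probes all 15 higher genes passed, and 9 of the 15 lower ones. The adjusted p-values that follow are from the limma fit without dim probes, and each SE is from the fit over all probes.

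The first of the 15 higher genes given here, Pcm1, Lrrcc1, Cep290 and Sclt1, encode proteins of the centrosome or the base of the cilium. A list of spindle and centrosome genes is given further below. It holds Pcm1 and Cep290 but not Lrrcc1 and Sclt1. Pcm1, the scaffold of the centriolar satellites, read 100 and 222 in the MVH precipitate, 16.7 and 22.9 in total RNA and 109 and 123 in the IgG precipitate. Its difference was 2.93 ± 0.39, or 7.63-fold, with a limma adjusted p of 0.00417. The IgG arrays lay between the 2 MVH arrays, well above total RNA. Lrrcc1, a centrosomal coiled-coil protein, had 386 and 729 against 90.6 and 71.6, with 189 and 158 in the IgG precipitate; the difference was 2.72 ± 0.35 (limma adjusted p = 0.00417). Here the MVH arrays stood above both other groups. Cep290, of the ciliary transition zone, had 82.6 and 139 against 18.4 and 20.8, with 59.3 and 89.7 in the IgG precipitate, a difference of 2.45 ± 0.35 (limma adjusted p = 0.00522). Sclt1, of the distal appendages of the centriole, had 328 and 519 against 86.4 and 71.7, with 284 and 219 in the IgG precipitate, a difference of 2.39 ± 0.32 (limma adjusted p = 0.00497). That the groups do not overlap for these 4 follows from the choice by gap. MVH precipitate 2 was the higher MVH array each time.

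The next 4 are known from sperm or germ cells. Adam5, of the ADAM family of sperm surface proteins, had 507 and 1229 in the MVH precipitate, 120 and 94.5 in total RNA and only 73.7 and 53.5 in the IgG precipitate. The difference was 2.89 ± 0.42, or 7.4-fold (limma adjusted p = 0.00522), and the IgG arrays were below total RNA. Slc9c1, the sodium/proton exchanger of the sperm tail that is needed for motility, had 103 and 203 against 24 and 18.2, with 92.3 and 57.7 in the IgG precipitate. Its difference was 2.79 ± 0.39 (limma adjusted p = 0.00497). Plcz1, the sperm phospholipase that sets off calcium waves in the egg, had 2342 and 5491 against 602 and 676, a difference of 2.49 ± 0.39 (limma adjusted p = 0.00795). The IgG arrays, at 2661 and 2417, were as high as the lower MVH array. Satl1, a spermidine/spermine acetyltransferase-like gene, had 1758 and 1871 against 448 and 357, with 1326 and 3210 in the IgG precipitate, a difference of 2.18 ± 0.41 (limma adjusted p = 0.0182).

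The remaining 7 higher genes have general cell functions. Srp54a, a subunit of the signal recognition particle that directs secretory proteins to the endoplasmic reticulum, had 262 and 496 in the MVH precipitate, 66.8 and 67 in total RNA and 54.8 and 24.8 in the IgG precipitate. Its difference was 2.43 ± 0.43 (limma adjusted p = 0.0144). Yme1l1, a protease of the mitochondrial inner membrane, had 407 and 1084 against 106 and 101, with 120 and 95.6 in the IgG precipitate, a difference of 2.68 ± 0.43 (limma adjusted p = 0.00795). For Yme1l1 the IgG arrays lay around the level of total RNA, and for Srp54a below it. Usp16, a histone H2A deubiquitinase, had 318 and 544 against 86.3 and 67.9, with 97.8 and 120 in the IgG precipitate, a difference of 2.44 ± 0.33 (limma adjusted p = 0.00497). Ptpn4, a protein tyrosine phosphatase, had 89.5 and 121 against 25.1 and 21.9, with 31.1 and 24.5 in the IgG precipitate, a difference of 2.15 ± 0.29 (limma adjusted p = 0.00522). Clec2m, of the C-type lectin family, had 8178 and 15055 against 2329 and 2364, with 2990 and 1933 in the IgG precipitate. Its difference was 2.24 ± 0.36 (limma adjusted p = 0.0102).

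Diaph2 and Zfp654 were high in both precipitates. Diaph2, a formin that nucleates actin filaments, had 113 and 135 in the MVH precipitate and 28.4 and 21.1 in total RNA, a difference of 2.33 ± 0.39 (limma adjusted p = 0.0108). Its IgG arrays, at 427 and 196, were above both MVH arrays. Zfp654, a zinc finger gene, had 1070 and 1875 against 242 and 311, with 811 and 1319 in the IgG precipitate, and differed by 2.37 ± 0.37 (limma adjusted p = 0.00795).

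**Figure D2:**
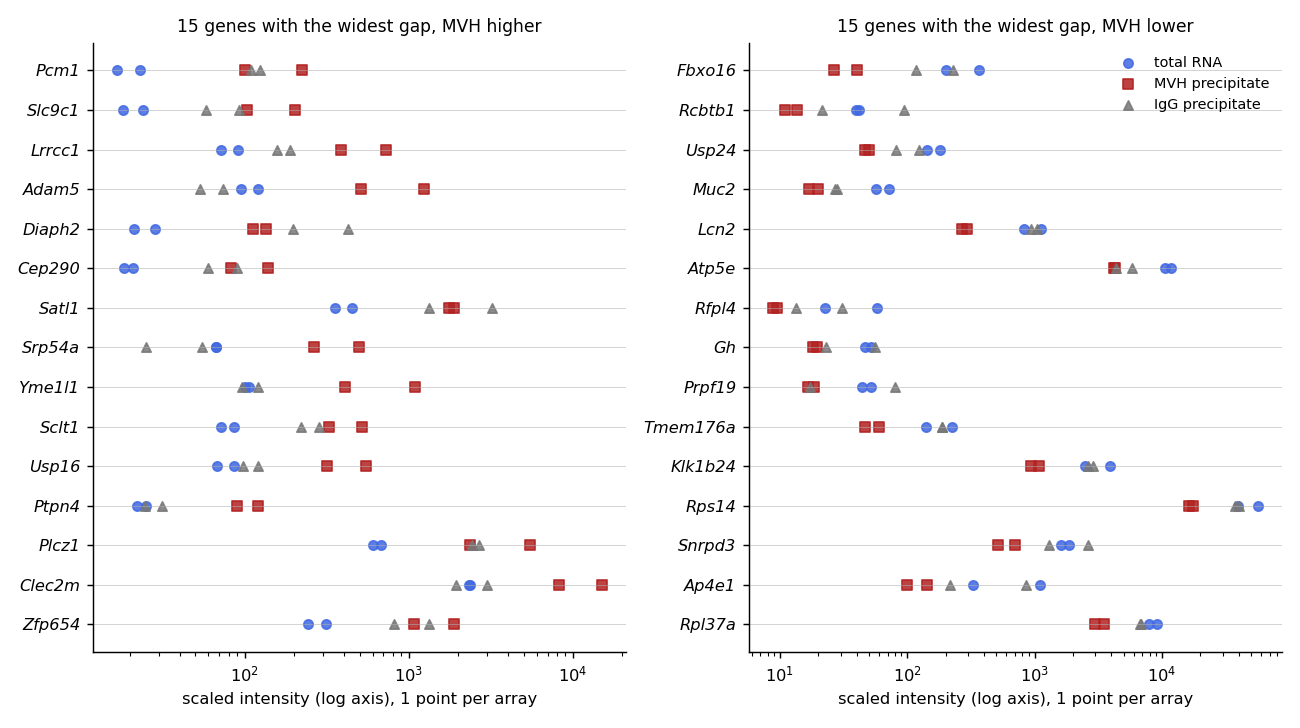
Scaled intensity on each array (log axis, 1 point per array) of the 15 genes with the widest gap above total RNA (left) and the 15 with the widest gap below it (right); squares are the MVH precipitate, circles total RNA and triangles the IgG precipitate. The genes were chosen so that squares and circles do not overlap. The triangles lie with the squares for Pcm1 and Satl1 and with the circles for Yme1l1, Lcn2 and Klk1b24.

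Fbxo16, which encodes an F-box protein, showed the largest named decrease. Its scaled intensities were 40.6 and 26.4 in the MVH precipitate, 368 and 200 in total RNA and 117 and 228 in the IgG precipitate. The difference was -3.05 ± 0.43, or 8.29-fold lower (limma adjusted p = 0.00497). Usp24, a deubiquitinase, had 46.3 and 50 against 180 and 142, with 82.2 and 123 in the IgG precipitate, a difference of -1.73 ± 0.30 (limma adjusted p = 0.0182). This is opposite to Usp16 of the same family. Muc2, a secreted mucin, had 20.1 and 16.9 against 72.5 and 56.5, with 28 and 27.3 in the IgG precipitate, a difference of -1.80 ± 0.28 (limma adjusted p = 0.0108). Lcn2, a lipocalin that binds iron-carrying siderophores, had 271 and 293 against 822 and 1124, with 1036 and 929 in the IgG precipitate, a difference of -1.77 ± 0.28 (limma adjusted p = 0.0123). Tmem176a, a membrane protein, had 47 and 60.4 against 141 and 224, with 188 and 188 in the IgG precipitate, a difference of -1.74 ± 0.31 (limma adjusted p = 0.0195). For Lcn2 and Tmem176a the IgG arrays lay within or beside the range of total RNA, while for Usp24 and Muc2 they lay between the MVH arrays and total RNA.

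Atp5e, the epsilon subunit of mitochondrial ATP synthase, had 4210 and 4295 in the MVH precipitate and 10499 and 11688 in total RNA, a difference of -1.38 ± 0.28 (limma adjusted p = 0.0383). Its IgG arrays, at 5826 and 4328, lay nearer to the MVH arrays than to total RNA. Klk1b24, a kallikrein made by Leydig cells, and the ribosomal protein genes Rps14 and Rpl37a also passed and are described with their groups below. The other 6 lower genes, whose groups do not overlap by the rule of choice, did not pass without dim probes. They were Rcbtb1 (-1.74 ± 0.58), Rfpl4 (-1.98 ± 0.50), Gh (-1.38 ± 0.40), Prpf19 (-1.43 ± 0.59), Snrpd3 (-1.52 ± 0.37) and Ap4e1 (-2.33 ± 0.69), with limma adjusted p-values of 0.059 to 0.25. The SE pools the spread within every group, so the IgG arrays enter it. These read 80.3 and 17.2 for Prpf19, 21.6 and 94.6 for Rcbtb1 and 56.2 and 23.1 for Gh. For these genes the MVH arrays, and the total RNA arrays, lay closer together than the IgG arrays. For Ap4e1, of the adaptor complex that sorts cargo at the Golgi, total RNA 1 and 2 read 1100 and 328, further apart than the gap to the MVH arrays at 144 and 99.3. Its IgG arrays were also far apart, at 862 and 217. Gh, Rfpl4, Rcbtb1 and Prpf19 were all under 60 on the 4 arrays. Rfpl4 had 8.9 and 9.5 in the MVH precipitate, so only its total RNA arrays, at 57.5 and 22.8, kept it above the dim limit.

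The antibody's own target came first among the genes fixed by name. Ddx4 had 1396 and 1559 in the MVH precipitate, 860 and 1306 in total RNA and 1468 and 1391 in the IgG precipitate. The MVH arrays did not overlap with total RNA, but the difference of 0.48 ± 0.30 did not pass (limma adjusted p = 0.736 over all probes). This is the mRNA of the precipitated protein, and no array measures the protein. Eif4b, an initiation factor that helps the helicase eIF4A unwind mRNA leaders, had 148 and 132 against 71.1 and 61, with 30.6 and 22.2 in the IgG precipitate. The 3 groups stood apart in that order, and the difference of 1.09 ± 0.29 had a limma adjusted p of 0.296 over all probes and 0.0983 without dim probes. Hat1, a histone acetyltransferase, had 134 and 294 against 143 and 149, so that a single MVH array carried its difference of 0.44 ± 0.38. Snd1, a component of RNA-silencing complexes, had 101 and 89.6 against 90.7 and 119, a difference of -0.13 ± 0.28. Actb, which encodes cytoplasmic actin, differed by -0.45 at both of its probes (SE 0.29 and 0.41), and its brighter probe had 14710 and 11133 against 15534 and 19803. Gapdh was dim on this array, with 6.1 to 7.2 on the 4 arrays, and differed by -0.02 ± 0.40.

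The groups of genes below are described by counts and medians, with 1 probe per gene. Where a gene had several probes that were not dim, their signs agreed in only 53.4% of genes. A direction given below is therefore that of the probe used. Over all 15489 genes the median difference was -0.01, 49% lay above 0, 20.3% stood higher without overlap and 21.1% lower without overlap. By at least 2-fold, 0.684% stood higher and 0.265% lower. In the fit without dim probes 84 of 12180 genes were called higher (0.69%) and 13 lower (0.107%). No member of any group passed in the limma fit over all probes. Among genes that were not dim, 22.2% stood higher and 21.4% lower without overlap. The lists differ from all genes in brightness. Their median scaled intensity in total RNA was 2281 for cytosolic ribosomal protein, 2726 for respiratory chain and 1424 for round spermatid genes. It was 35.9 over all genes and 15.1 for peritubular and vascular markers. Differences spread more among bright probes than dim ones, and no share matched for brightness was computed. The IgG precipitate against total RNA had a median of -0.09 over all genes.

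Of 40 genes of round spermatids and the acrosome, the enzyme-filled cap of the sperm head, 31 lay above 0. Without overlap 15 were higher (37.5%) and 5 lower, and the median was 0.30. The same genes had a median of -0.32 in the IgG precipitate against total RNA, a comparison that shares the total RNA arrays. Adam5, Plcz1 and Crisp2 passed without dim probes. Crisp2, a secretory protein that is stored in the acrosome, had 16151 and 38542 in the MVH precipitate, 7008 and 6593 in total RNA and 12909 and 13574 in the IgG precipitate. Its difference was 1.88 ± 0.40 (limma adjusted p = 0.0305), and MVH precipitate 2 stood far above MVH precipitate 1. Izumo3, a relative of the sperm-egg fusion protein, had 1890 and 5279 against 1128 and 1026, a difference of 1.55 ± 0.44 that did not pass (limma adjusted p = 0.0914). Hyal5, a sperm hyaluronidase, had 1856 and 3286 against 929 and 1190, a difference of 1.23 ± 0.43, also not passing. Tmprss12, a serine protease, stood lower, with 93.8 and 80.3 against 150 and 192. The median of the list was 0.12 without MVH precipitate 2, 0.15 without total RNA 1, 0.49 without total RNA 2 and 0.52 without MVH precipitate 1.

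Of 11 genes that pack sperm chromatin, 4 lay above 0 and the median was -0.10, with 2 higher and 3 lower without overlap. Chd5, a chromatin remodeller, stood higher at 302 and 312 against 126 and 207, with 260 and 400 in the IgG precipitate (0.93 ± 0.34). Hils1, a spermatid linker histone, stood lower at 20718 and 26698 against 28873 and 37796 (-0.49 ± 0.29). H2al2a, a histone variant, had 19167 and 19375 against 25562 and 34941. The bright members of this list lie near the top of the scale.

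Of 26 genes of the fibrous sheath and outer dense fibres, which stiffen the sperm tail, 14 lay above 0. The median was 0.05, with 6 higher and 5 lower without overlap, against a median of -0.55 in the IgG precipitate. Spata18, a mitochondrial quality-control gene, had 12199 and 15532 against 8319 and 8127, with 3414 and 4947 in the IgG precipitate, a difference of 0.74 ± 0.30. Spata20 differed by 1.06 ± 0.36 at its brighter probe and by 0.33 ± 0.31 at another. Of 22 metabolic isozymes of sperm, 8 stood higher without overlap (36.4%) and 2 lower, with a median of 0.18. Pgk2, the phosphoglycerate kinase of spermatids, had 9349 and 14813 against 5752 and 7574, with 3321 and 2185 in the IgG precipitate. Its difference of 0.83 ± 0.35 did not pass. Gpd2, the mitochondrial glycerol-3-phosphate dehydrogenase, had 3645 and 3816 against 2148 and 1203, with 1002 and 339 in the IgG precipitate (1.21 ± 0.50). Cox6b2, the testis form of a cytochrome oxidase subunit, went the other way, with 1866 and 1935 against 3078 and 3988.

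Of 60 genes of the axoneme, the microtubule core of the sperm tail, and of cilia, 41 lay above 0 and the median was 0.20. Without overlap 27 were higher (45%) and 9 lower. The IgG precipitate had a median of 0.05 against total RNA for these genes. Spag17, of the central pair apparatus, passed without dim probes, with 222 and 173 in the MVH precipitate, 90.5 and 52 in total RNA and 201 and 174 in the IgG precipitate. Its difference was 1.52 ± 0.33 (limma adjusted p = 0.0452), and the IgG arrays were as high as the MVH arrays. Cfap43, a flagellar protein, had 997 and 1366 against 476 and 488 (1.28 ± 0.29, limma adjusted p = 0.0575), and its IgG arrays were higher still at 2623 and 2149. Ift74, of the intraflagellar transport complex, had 199 and 587 against 118 and 79.1 (1.82 ± 0.47), with the MVH arrays far apart. Its IgG arrays, at 236 and 224, lay between the MVH arrays. Of 24 ion channel and pump genes of sperm, 10 stood higher without overlap (41.7%) and 5 lower, with a median of 0.15. Of them 3 were dim, and the median was 0.27 without dim probes. Slc9c1, described above, was the only called member. Catsper4, a pore subunit of the sperm calcium channel, had 1469 and 1793 against 732 and 864, with 312 and 449 in the IgG precipitate (1.03 ± 0.30). Atp1a4, the sodium pump subunit of sperm, had 60.4 and 75.3 against 28.5 and 16.3, with 7.2 and 2.88 in the IgG precipitate (1.65 ± 0.46). For these last 2 genes the MVH arrays were highest and the IgG arrays lowest, and neither passed.

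Of 40 genes of meiotic prophase, 27 lay above 0 and the median was 0.15, with 16 higher (40%) and 5 lower without overlap. The IgG precipitate had a median of 0.05 against total RNA for these genes. Meioc, which keeps germ cells in the meiotic programme, passed without dim probes, with 54.3 and 76.2 in the MVH precipitate, 20.8 and 21.8 in total RNA and 44.8 and 83.7 in the IgG precipitate. Its difference was 1.59 ± 0.35 (limma adjusted p = 0.0443). Sycp3, of the synaptonemal complex, had 422 and 901 against 292 and 301, with 229 and 139 in the IgG precipitate (1.06 ± 0.40). Tex15, which is needed for meiotic recombination, had 203 and 267 against 92.6 and 113, with 529 and 611 in the IgG precipitate (1.18 ± 0.29). H2ax, the histone variant phosphorylated at DNA breaks, stood lower at 378 and 278 against 719 and 667 (-1.09 ± 0.32). Of these, only Meioc passed.

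The partners of MVH in the germ granule were measured as mRNAs too. Of 33 genes of the piRNA pathway and germ granule, 22 lay above 0, 14 were higher without overlap (42.4%) and 7 lower, and the median was 0.21. The IgG precipitate had a median of 0.12 against total RNA for the same genes. Stk31, a Tudor-domain kinase that associates with a Piwi protein, passed without dim probes, with 42 and 61.6 in the MVH precipitate, 19.5 and 17.3 in total RNA and 62.2 and 44.1 in the IgG precipitate. Its difference was 1.47 ± 0.31 (limma adjusted p = 0.0424). Rnf17, a Tudor-domain protein of germ cells, had 22 and 57.7 against 12.8 and 10.1 (1.65 ± 0.45), and its 2 MVH arrays differed by more than its gap to total RNA. Ddx25, a helicase of the chromatoid body, had 959 and 1886 against 488 and 632, with 279 and 199 in the IgG precipitate (1.28 ± 0.38). Kif17, a kinesin found in the chromatoid body, had 433 and 480 against 244 and 183, with 90.3 and 125 in the IgG precipitate (1.11 ± 0.30). Neither Ddx25 nor Kif17 passed. The median of the list was 0.07 without MVH precipitate 2, 0.11 without total RNA 1, 0.33 without total RNA 2 and 0.34 without MVH precipitate 1.

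Of 44 mRNA-binding translational regulators, 31 lay above 0, 16 were higher without overlap (36.4%) and 5 lower, and the median was 0.19. The IgG precipitate had a median of -0.09 against total RNA for the same genes. None was called. Igf2bp3, an mRNA-binding protein of germ and embryonic cells, had 359 and 545 against 194 and 182, with 100 and 89.1 in the IgG precipitate (1.23 ± 0.30, limma adjusted p = 0.0708). Cpeb2, which binds the cytoplasmic polyadenylation element, had 663 and 1253 against 333 and 409 (1.30 ± 0.35). Ybx1, a Y-box protein that coats mRNA, had 5750 and 4497 against 3204 and 2617, with 1166 and 392 in the IgG precipitate (0.81 ± 0.47). These 3 genes were named from the members whose groups do not overlap.

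Among 47 DEAD and DEAH box helicases, 15 stood higher without overlap (31.9%) and 7 lower, with a median of 0.10. This was near the median of 0.09 in the IgG precipitate. Ddx20, which works with the SMN complex, passed without dim probes, at 37.8 and 47.9 against 17.6 and 10.2, with 11.1 and 18.2 in the IgG precipitate (1.67 ± 0.37, limma adjusted p = 0.0424). Dhx40 had 2404 and 3226 against 1221 and 1143 (1.24 ± 0.29) and did not pass. Of 46 translation initiation factors, 23 lay above 0 and the median was 0.00, with 11 higher and 13 lower without overlap. Eif4b, described above, and Eif3a (35.8 and 39.5 against 19.5 and 19) stood higher, and Eif2b1 (222 and 267 against 374 and 584) lower. Eif4g1, the scaffold of the cap-binding complex, had the largest difference of the list, at -1.86 ± 0.57. Its level was low, at 7.9 and 6 against 38.8 and 16.2, and it did not pass. Only its total RNA arrays kept it above the dim limit. Of 53 genes of mRNA decay and silencing, 12 stood higher and 11 lower without overlap, with a median of -0.06. Smg1, the kinase of nonsense-mediated decay, passed without dim probes at 83.4 and 92.5 against 29.7 and 29.8, with 42.6 and 39.4 in the IgG precipitate (1.56 ± 0.26, limma adjusted p = 0.0182). Of 64 splicing factors and hnRNPs, 12 stood higher and 25 lower without overlap (39.1%), and the median was -0.10. Snrpd3, of the Sm core of spliceosomal particles, had 701 and 517 against 1595 and 1863 and did not pass (limma adjusted p = 0.0598).

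**Figure D3:**
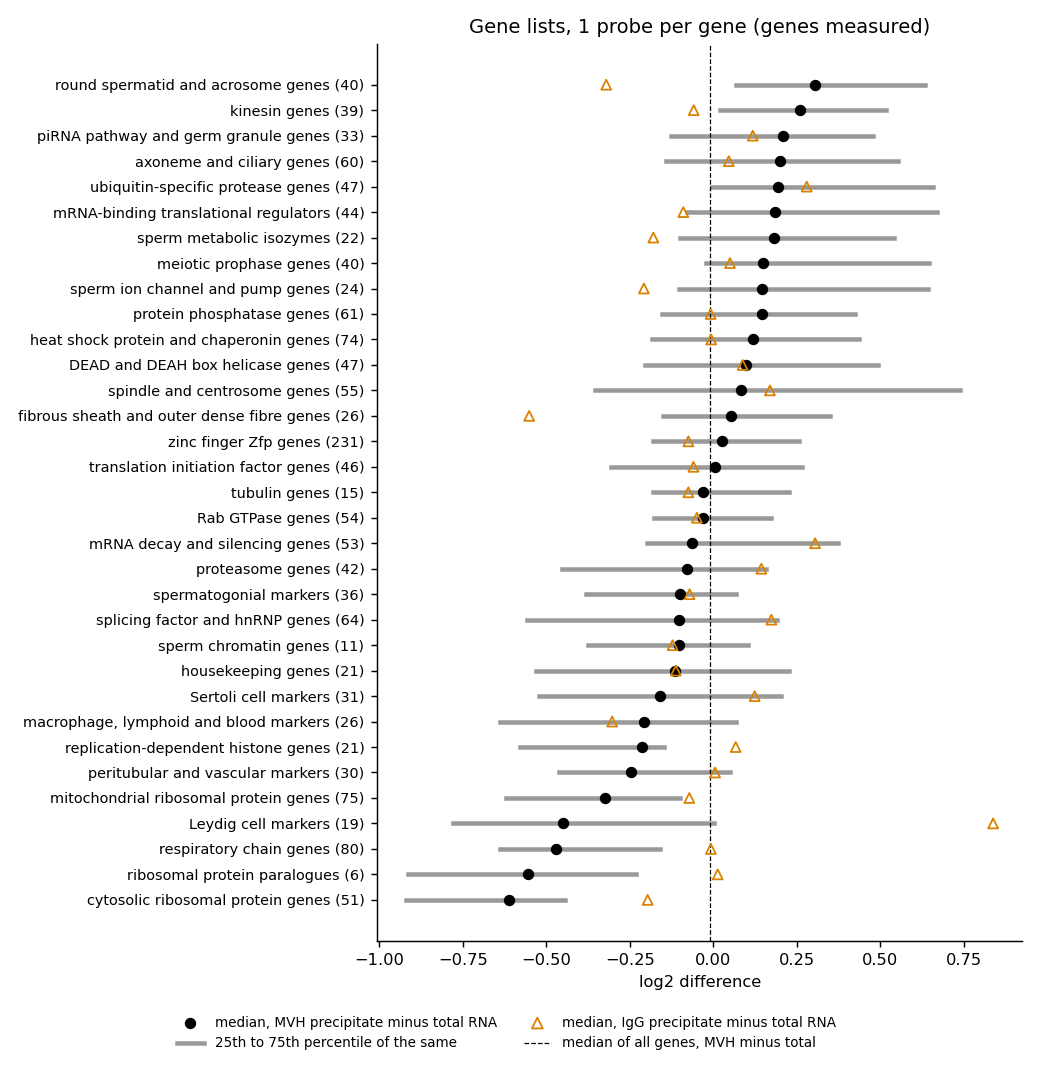
For each gene list (number of genes measured in brackets), the dot is the median log2 difference of the MVH precipitate from total RNA, the bar spans its 25th to 75th percentile, the triangle is the median for the IgG precipitate against the same total RNA arrays, and the dashed line is the median of all genes (-0.01). Medians run from 0.30 for round spermatid and acrosome genes to -0.61 for cytosolic ribosomal protein genes.

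Motors and centrosome parts held several called genes. Of 39 kinesin genes, 31 lay above 0, 13 were higher without overlap (33.3%) and 3 lower, and the median was 0.26. The IgG precipitate had a median of -0.06 against total RNA for the same genes. Kif15, a spindle kinesin, had 76 and 145 in the MVH precipitate, 18.4 and 22.4 in total RNA and 97.7 and 71.1 in the IgG precipitate (2.37 ± 0.36, limma adjusted p = 0.00772). Kif18a, which dampens chromosome movement on the spindle, had 108 and 211 against 40.8 and 45.6, with 107 and 95.3 in the IgG precipitate (1.80 ± 0.35, limma adjusted p = 0.0224). For both, the IgG arrays were at about the level of the lower MVH array. Kif27, a relative of a ciliary kinesin, had 267 and 314 against 134 and 146, with 136 and 112 in the IgG precipitate (1.05 ± 0.27), and did not pass.

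The 55 spindle and centrosome genes spread widely, with 21 higher (38.2%) and 15 lower (27.3%) without overlap and a median of 0.08. Of them 13 were dim, and the median was 0.29 without dim probes and 0.24 without MVH precipitate 1. The IgG precipitate against total RNA had a median of 0.17 over all 55. Pcm1 and Cep290 passed, as did Cep70, a centrosomal protein, at 50 and 130 against 21.9 and 18.1, with 30.3 and 29.7 in the IgG precipitate (2.02 ± 0.42, limma adjusted p = 0.0279). Ttk, a spindle checkpoint kinase, had 257 and 613 against 116 and 122 (1.74 ± 0.45, limma adjusted p = 0.0687). Members were named by size of difference, and none of the 15 lower ones is among them. Of 15 tubulin genes, 4 stood higher and 4 lower without overlap, with a median of -0.03. The 2 probes of Tuba1b disagreed: the brighter one had 2183 and 1792 against 3028 and 3891 (-0.80 ± 0.33), and the dimmer one 85.8 and 50.7 against 44 and 37.4 (0.70 ± 0.32). Such disagreement was common. Of 131 genes with several probes that were not dim, 70 (53.4%) had the same sign of difference at all of them. For genes with 2 probes, signs unrelated to each other would agree about that often. A gene's value here is that of its brightest probe.

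Of 47 ubiquitin-specific protease genes, 35 lay above 0, 19 were higher without overlap (40.4%) and 2 lower, and the median was 0.19. The IgG precipitate had a higher median against total RNA for the same genes, at 0.28. In the fit without dim probes 4 were called higher and 1 lower. Beside Usp16 and Usp24, Usp1, which removes ubiquitin from DNA repair proteins, had 757 and 1754 against 253 and 261, with 358 and 501 in the IgG precipitate (2.16 ± 0.40, limma adjusted p = 0.0182). Usp37, of the cell cycle, had 65.5 and 101 against 27 and 18.7, with 17.4 and 12.1 in the IgG precipitate (1.85 ± 0.35, limma adjusted p = 0.0199). Usp8, of the endosome, had 101 and 169 against 43.3 and 48, with 25.8 and 35.8 in the IgG precipitate (1.52 ± 0.33, limma adjusted p = 0.0443). For Usp37 and Usp8 the MVH arrays were highest and the IgG arrays lowest.

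Of 61 protein phosphatase subunits, 22 stood higher without overlap (36.1%) and 12 lower, with a median of 0.15, against -0.01 in the IgG precipitate. Ppp1r42, a regulatory subunit of the testis, had 908 and 1286 in the MVH precipitate, 295 and 369 in total RNA and 344 and 292 in the IgG precipitate (1.71 ± 0.30, limma adjusted p = 0.0182). Ppp2r1b, a scaffold subunit, had 366 and 353 against 129 and 152, with 60.9 and 47.3 in the IgG precipitate (1.36 ± 0.28, limma adjusted p = 0.0394). Its 2 MVH arrays were level, unlike those of most called genes. Ppp4r4 had 22.2 and 24 against 9.1 and 5.8, with 8.2 and 5.62 in the IgG precipitate (1.67 ± 0.33, limma adjusted p = 0.0261). Its total RNA and IgG arrays were all under 10, so only its MVH arrays kept it above the dim limit. Of 74 heat shock proteins and chaperonins, 23 stood higher (31.1%) and 11 lower without overlap, with a median of 0.12. Dnajc2 had 4195 and 6546 against 2652 and 2987, with 6519 and 10477 in the IgG precipitate, and none was called.

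Of 231 zinc finger genes of the Zfp series, 56 stood higher (24.2%) and 40 lower without overlap, near the 20.3% and 21.1% of all genes, and the median was 0.03. Zfp654 and Zfp933 were called. Zfp933 had 143 and 319 against 50.3 and 37.7, with 62.8 and 60.9 in the IgG precipitate (2.29 ± 0.39, limma adjusted p = 0.0117). Of 54 Rab GTPases, 8 stood higher and 12 lower without overlap, with a median of -0.03, and none was called. Rab1, of transport from the endoplasmic reticulum, had 214 and 334 against 146 and 150 (0.85 ± 0.31).

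Cytosolic ribosomal protein genes had the lowest median of the lists. Of 51 measured, 46 lay below 0, 39 were lower without overlap (76.5%) and none was higher without overlap. Their median was -0.61, against -0.20 in the IgG precipitate. At least 2-fold gaps were found in 5, and 3 passed without dim probes. Rps14, of the small subunit, had 17333 and 16211 in the MVH precipitate, 39505 and 56792 in total RNA and 37131 and 40055 in the IgG precipitate, a difference of -1.50 ± 0.29 (limma adjusted p = 0.0274). Rpl37a, of the large subunit, had 2972 and 3505 against 7861 and 9114, with 6682 and 6810 in the IgG precipitate, a difference of -1.39 ± 0.27 (limma adjusted p = 0.0305). A further Rpl37a probe differed by -1.33 ± 0.33. Rps27 had 3854 and 2812 against 8183 and 11327, with 11859 and 7055 in the IgG precipitate, a difference of -1.55 ± 0.35 (limma adjusted p = 0.0478). In all 3 the IgG arrays lay nearer to total RNA than to the MVH arrays. Rps10 (3361 and 4048 against 8199 and 8528) and Rpl39 (54.2 and 53.1 against 107 and 159) stood lower without passing. Ribosomal protein genes have many processed copies, and probes may share signal with them.

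Ribosomal protein mRNAs classically begin with a run of pyrimidines at the cap, the terminal oligopyrimidine motif that couples their translation to growth signals. The starts of 4 genes are shown, with and without such a run, because this feature was not used to choose the group. Each covers 20 bases before and 10 bases from the first start listed for the gene, 5′ to 3′ on the sense strand, from RefSeq on GRCm38.p6. Capitals mark a run of at least 7 letters C or T that touches the first 3 transcribed bases. The genes are Rps27 at chr3:90213639-90213668 (minus strand), Rps10 at chr17:27635235-27635264 (minus), Rpl37a at chr1:72711240-72711269 (plus) and Rpl39 at chrX:37085213-37085242 (minus).
Rps27: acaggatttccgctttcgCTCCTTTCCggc
Rps10: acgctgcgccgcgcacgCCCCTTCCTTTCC
Rpl37a: gtcacttccgctcgccggtctaaaaccgcg
Rpl39: ccccccctaagctccgcctctagcgacttc
The run was found at 1 or more starts of 18 of 41 ribosomal protein genes with an entry (43.9%). Counted per promoter and not per gene, it was found at 2340 of 32851 in all (7.12%). Within the ribosomal protein genes the median difference was -0.60 for those with the run and -0.71 for the 23 without it. Among 9807 other genes that were not dim, 829 had the run (8.45%, also per gene), with a median of 0.01 against 0.00 for those without it. Among the 1240 of these at a mean scaled intensity of at least 1000, the 99 with the run had a median of -0.01 against -0.04. A start may differ between annotation and testis, and no match says only that the run is not in this window.

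Genes of the mitochondrion stood lower as well. Of 80 nuclear-encoded genes of the respiratory chain, 69 lay below 0, 53 were lower without overlap (66.2%) and 5 higher, and the median was -0.47. The IgG precipitate had a median of -0.01 for the same genes. Atp5e was the only called member. Cycs, cytochrome c, had 135 and 206 against 327 and 439 (-1.18 ± 0.37), and Atp5g2, of the ATP synthase ring, 1166 and 1061 against 1974 and 2870 (-1.10 ± 0.29). Of 75 mitochondrial ribosomal protein genes, 58 lay below 0, 40 were lower without overlap (53.3%) and 3 higher, and the median was -0.32. Mrps31 had 218 and 223 against 379 and 638 (-1.16 ± 0.32), and none was called. The 6 testis or minor paralogues of cytosolic ribosomal proteins had a median of -0.55, with 3 lower without overlap. Rpl39l, the testis form of Rpl39, had 8755 and 8959 against 14815 and 21366 (-1.01 ± 0.30) and did not pass. The median of this small list was -0.05 without MVH precipitate 1 and -0.88 without MVH precipitate 2.

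Other genes of abundant, general transcripts showed smaller shifts. Of 21 replication-dependent histone genes, 20 lay below 0, 8 were lower without overlap (38.1%) and none was higher without overlap, with a median of -0.21. This median was -0.08 without MVH precipitate 1, -0.52 without MVH precipitate 2 and -0.49 without total RNA 1. H2ac4 had 6357 and 6282 against 10330 and 15362. H4c1 had 7 probes, all below 0, and its brightest read 522 and 643 against 860 and 1246 (-0.84 ± 0.31). Histone genes are near-identical copies, so their probes are not independent. Of 42 proteasome genes, 16 stood lower (38.1%) and 5 higher without overlap, with a median of -0.08. Of 21 housekeeping genes, 11 stood lower (52.4%) and 4 higher, with a median of -0.11. Ldha, which makes lactate dehydrogenase A, stood higher at 4890 and 5354 against 1896 and 2588, with 1239 and 545 in the IgG precipitate (1.21 ± 0.40), and B2m lower at 139 and 113 against 251 and 258 (-1.02 ± 0.28). No gene of these 3 lists was called.

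Markers of the somatic cells of the testis leaned to the total RNA side. Leydig cells, between the tubules, make androgen and have no MVH. Of 19 Leydig cell markers, 14 lay below 0, 11 were lower without overlap (57.9%) and none was higher without overlap, with a median of -0.45. This median was -0.24 without total RNA 2, -0.30 without MVH precipitate 1, -0.68 without total RNA 1 and -0.71 without MVH precipitate 2. Their summed scaled intensity was 4600 and 5040 in the MVH precipitate, 6463 and 9153 in total RNA and 11999 and 9759 in the IgG precipitate. The IgG precipitate thus had the highest scaled sums, and its median against total RNA was 0.84. The sums are of scaled intensities, in which bright probes weigh most, and do not give an amount of RNA. Klk1b24 had 1083 and 942 against 2488 and 3916, with 2876 and 2618 in the IgG precipitate, a difference of -1.63 ± 0.31 (limma adjusted p = 0.0224). Ephx1, an epoxide hydrolase, had 84.3 and 59.8 against 165 and 292, with 432 and 358 in the IgG precipitate, a difference of -1.63 ± 0.35 (limma adjusted p = 0.0387). Cyp17a1, an enzyme of androgen synthesis, had 140 and 177 against 320 and 561, with 1145 and 788 in the IgG precipitate (-1.43 ± 0.36, limma adjusted p = 0.0679).

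Sertoli cells, the nurse cells of the tubule, showed a smaller shift. Of 31 markers, 13 stood lower without overlap (41.9%) and 6 higher, with a median of -0.16, which was -0.28 without dim probes. Their sum was 18874 and 24675 in the MVH precipitate, 27026 and 35634 in total RNA and 39426 and 40946 in the IgG precipitate. Fabp3, a fatty acid binding protein, had 784 and 820 against 1463 and 2229 (-1.17 ± 0.30), and none was called. Nr0b1 went the other way, with 169 and 206 against 124 and 104 (0.71 ± 0.35). Of 30 peritubular and vascular markers, 13 stood lower (43.3%) and 2 higher, with a median of -0.25. The sums over the 28 listed on all 6 arrays were 12293 and 14266 in the MVH precipitate, 13171 and 16304 in total RNA and 11529 and 8842 in the IgG precipitate. Col3a1, a collagen, had 34.4 and 32.8 against 60.5 and 73.8. Myh11 went the other way, with 22.3 and 19.9 against 12.6 and 12.6 (0.74 ± 0.32). Of 26 macrophage, lymphoid and blood markers, 11 stood lower (42.3%) and 5 higher, with a median of -0.21. The sums over the 23 listed on all 6 arrays were 26006 and 29753 in the MVH precipitate, 31884 and 39326 in total RNA and 13214 and 20137 in the IgG precipitate. In these 2 lists the IgG precipitate had the lowest sums. Fcer1g, an Fc receptor chain, had 30.9 and 27.7 against 52.5 and 61.9. Mrc1 went the other way, with 14.7 and 18.6 against 7.7 and 11.8 (0.79 ± 0.31).

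Spermatogonia are the germ cells before meiosis. Of their 36 markers, 10 stood lower without overlap (27.8%, near the 21.1% of all genes) and 3 higher, with a median of -0.10 that lay between -0.26 and -0.08 with 1 array left out, and their sum over the 34 listed on all 6 arrays was 5482 and 5674 against 6770 and 7769, with 13510 and 10286 in the IgG precipitate. Tex101, a germ cell surface protein, was counted in this list but is not confined to spermatogonia. It had 437 and 493 against 835 and 1337 (-1.19 ± 0.32, limma adjusted p = 0.0935), which cannot be read as a decrease of spermatogonial RNA. No spermatogonial, Sertoli, peritubular or blood marker was called. All 5 marker sums were lower in both MVH arrays than in total RNA 2, and those of Leydig cells, Sertoli cells, spermatogonia and blood also than in total RNA 1. No marker summed was at 0, since the table lists no value below 1.3. The part of cell content in the gene differences above was not tested.

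The size of the differences changed with brightness. Each difference is between means of 2 arrays, so its SD over probes was set against the SD that the differences between arrays of a group give for such means (the square root of their summed variances divided by 4). Among dim probes the SD was 0.43, against 0.42 from the arrays. At 10 to 30 it was 0.38 against 0.31, at 100 to 300 it was 0.50 against 0.29, and at 1000 to 3000 it was 0.59 against 0.26. The excess over the spread between arrays was thus small among dim probes and larger among bright ones. Probes at least 2-fold higher without overlap made up 1.79% at 1000 to 3000 and 0.357% over 10000. Those at least 2-fold lower made up 1.04% and 1.79%. Over 10000 these are 1 and 5 of 280 probes.

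**Figure D4:**
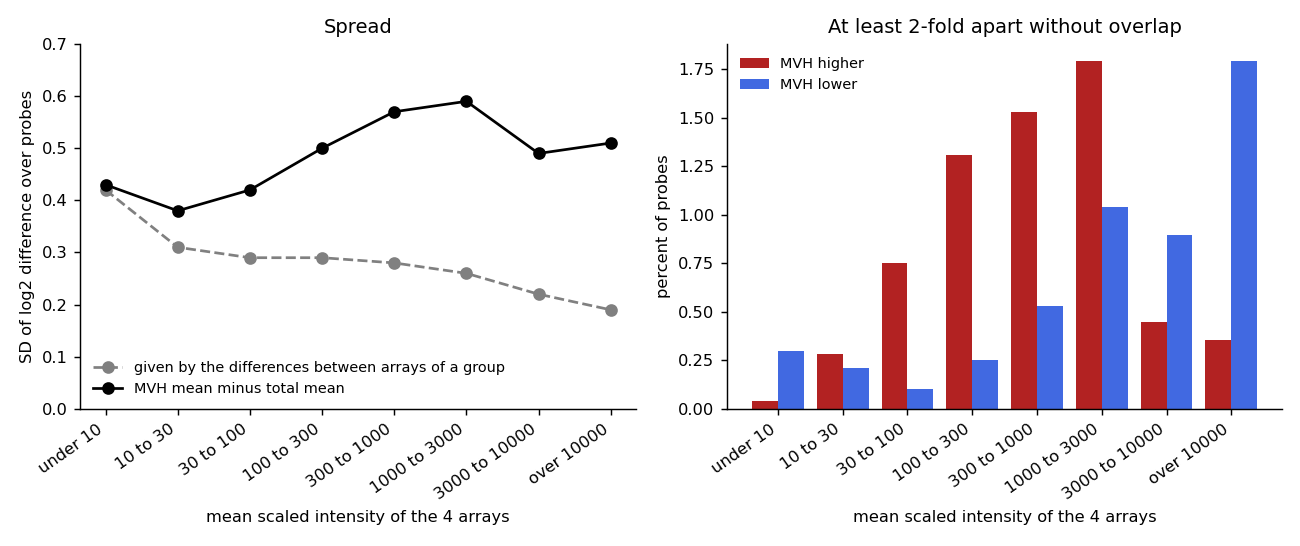
Left, by mean scaled intensity of the 4 arrays, the SD over probes of the log2 difference between the group means (solid line) and the SD that the differences between arrays of a group give for such means (dashed line); right, the percent of probes at least 2-fold apart without overlap in each direction. The lines lie at 0.43 and 0.42 for dim probes and at 0.59 and 0.26 at 1000 to 3000, and lower probes outnumber higher ones above 3000.

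The 5053 dim probes gave little on their own. Without overlap 617 (12.2%) stood higher and 1008 (19.9%) lower, 2 (0.0396%) and 15 (0.297%) of them by at least 2-fold, and none passed in the limma fit over all probes. The limit at 10 cuts through a continuous range. Just inside it, Palmd read 12.4 and 10.7 in the MVH precipitate against 9.3 and 7.5 in total RNA. Just outside it, Hgfac read 10.2 and 12 against 10.2 and 7.6.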

How the data were processed

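The authors deposited 1 intensity per probe and array, on a linear scale. Amino allyl aRNA was amplified from the RNA and Cy5 was attached, each array taking 1 sample, per the labels' protocols. How the arrays were scanned, background-corrected and scaled, and when a cell was left blank, is not given in the sources used here. Deposited intensities had a median of 30 on the 4 arrays compared and 20.8 on IgG precipitate 2. Protocol text that speaks of other tissues was set aside.

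Intensities were taken to log2 and centred on each array's median. All 6 arrays were fitted with limma 3.58.1 (lmFit, then eBayes; R 4.3.3), with 3 residual degrees of freedom and 5.77 added by the prior (9.77 without dim probes). The contrast was tested at probes listed on all 4 arrays, with Benjamini-Hochberg adjusted p-values over all of them and a threshold of 0.05. The fit without dim probes was a listed alternative. The script was tested on simulated data. Precision is limited by the number of arrays.

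Probes were named from the platform annotation, in which 16631 had 1 symbol and 6842 none. The symbols of 3947 probes were updated through RefSeq's synonyms for GRCm38.p6. For the symbols of 62 probes no match was found. A gene is represented by its brightest probe. Named genes were, for each direction, the 15 with the widest gap between nearest arrays that have a descriptive symbol, no more than 6 list members without overlap, by size of difference, 8 genes fixed by name (Prm1, Tnp1, Ddx4, Eif4b, Hat1, Snd1, Gapdh and Actb) and every probe passing over all probes. The genes and lists were chosen with earlier results of these data known. Alternatives covered centring, quantile normalization, dim probes, an offset of 4, probes per gene, blanks, the spread model, the arrays fitted, a replicate block and leaving out each array. Plots used matplotlib 3.10.9.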

Additional observations from a re-analysis of the deposited data

Results flagged for a closer look

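Some probes had values in a single group only and could not enter the comparison. Blank cells numbered 706 and 619 on the MVH arrays and 612 and 1063 on the total RNA arrays. The counts that follow therefore have unlike backgrounds. Both MVH arrays gave a value, and both total RNA arrays a blank, at 90 probes, against 59 the other way round. All were faint. The 90 had a median scaled intensity of 2.32, none had a mean over 10, and 34 of them were also listed on both IgG arrays. The brightest was Arap2, at 7.9 and 11.2 in the MVH precipitate. The rule by which cells were left blank is not given in the sources used here, and no fold was computed against a blank.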

How the results depend on the processing

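The counts of called probes moved most. Over all probes, 1 higher and 2 lower became 14 and 5 with no centring, 115 and 27 without dim probes, 123 and 31 without the dimmest 25%, 72 and 21 with an offset of 4 before log2, 8 and 1 with 1 probe per gene, 23 and 7 on probes listed on all 6 arrays, 132 and 48 with a variance trend and robust prior, and 2 and 4 with the 4 arrays alone. Centring on the 75th percentile gave 5 higher. With the replicate number as a block there were 3 and 1, and M400000660 lost its call (limma adjusted p = 0.0611). Leaving out 1 array, where the lone array left is assumed to vary like the other groups, gave 0 to 9 higher and 0 to 4 lower. Leaving out either IgG array gave the same counts as the 4 arrays alone, here and without dim probes. Fits without dim probes that left out an MVH or total RNA array are described above. Without dim probes, 115 and 27 became 469 and 233 with the 4 arrays alone and 161 and 58 with the variance trend, and the block there gave 107 and 27. These alternatives to the fit without dim probes were chosen after seeing the data. The cause was not tested.

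With 1 of the 4 arrays left out, groups that do not overlap numbered 6790 to 7585 higher and 7941 to 8279 lower, and those at least 2-fold apart 201 to 720 and 191 to 413, since fewer arrays overlap less often. Leaving out an IgG array kept 4066, 4718, 141 and 70. With the offset 44 probes were at least 2-fold lower, and with 1 probe per gene 41.

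Of genes fixed by name, Gapdh turned to 0.08 with quantile normalization and ranged from -0.14 to 0.10 with 1 array left out. On leaving out 1 array Hat1 ranged from -0.12 (without MVH precipitate 2) to 1.01, Prm1 from -0.44 to 0.05 and Tnp1 from -0.30 to 0.10 (both turned without MVH precipitate 1), and Snd1 from -0.32 to 0.07 (without total RNA 2). No gene list median turned under another scaling. With 1 array left out, those of sperm chromatin (0.10), fibrous sheath (-0.05), proteasome (0.04), tubulin (0.03), Rab (0.03) and mRNA decay genes (0.03) did. The median of ribosomal protein genes stayed between -0.80 and -0.52, and that of respiratory chain genes between -0.55 and -0.30. Over probes that were not dim, arrays of the same number deviated from their group means with correlations of 0.21 (MVH precipitate and total RNA), 0.186 (MVH and IgG precipitate) and 0.13 (total RNA and IgG precipitate). With only 2 numbers, and no label that ties them to an animal or day, they were not taken to pair the arrays.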
